A study of Mus musculus with 6 samples.

Results

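Solute carriers are the membrane proteins that move amino acids, sugars, ions, metals, nucleotides and vitamins across the plasma membrane and the membranes of organelles. The genes described here were the expressed solute carriers outside the Slc26 family, 81 of the 18193 genes read by the arrays. They were chosen by a symbol of the form Slc, family number, letters and member number, and by a mean log2 intensity of 6 or more over all 6 arrays, which is an intensity of 64 on the linear scale. The symbol rule alone, without the Slc26a genes, Slc18a2 and Slc2a4, held 322 genes, of which 241 lay under that level. The level is a mean over both groups, and the genes were chosen with earlier results of these data known. Of the 81 genes, 76 had a mean of 6 or more in both groups. Slc1a1 and Slc31a2 reached it in the control group only, and Slc2a13, Slc7a8 and Slc25a48 in the mutant group only, so that the level of those 5 in 1 group decided their place.

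Uterine RNA of 3 control and 3 mutant (Pgr cre/+ Ctnnb1f(ex3)/+) female mice at 4 weeks of age was hybridized to 6 Affymetrix mouse arrays, 1 sample per array. In the mutant, Cre recombinase made from the Pgr locus deletes exon 3 of 1 Ctnnb1 allele wherever Pgr is active, which leaves a stable form of β-catenin. Controls are wild type by the sample labels, and Pgr cre/+ and Ctnnb1 f(ex3)/+ by the methods. The methods also state that RNA of 3 mice per genotype was pooled, so the 3 arrays of a group may not hold separate animals, and the p-values cover no more than the spread among these arrays, which may be technical. The uterine transcripts Esr1, Pgr, Hoxa10 and Hoxa11 were all above the level of 6, and Pgr was lower, with a log2FC (mutant over control on the log2 scale, with limma's standard error, SE) of -0.97 (SE 0.11, adjusted p = 0.0027 from limma). The mutant carries Cre at 1 Pgr allele, and the labels give the controls as wild type. An effect of that allele on Pgr itself cannot be told apart from one of stable β-catenin. Control replicate 2 stood apart in 13 cell cycle genes, whose log2 intensities averaged 4.41 there against 6.60 and 6.74 in the other control arrays. The mean over the 81 solute carriers was 7.24 to 7.32 in the control arrays, control replicate 2 included, and 7.26 to 7.33 in the mutant arrays.

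Carriers of the plasma membrane set which nutrients a cell takes up, and in the uterus they also shape the fluid of the lumen. Many amino acid exchangers of the Slc7 family work as pairs of a light chain with the glycoprotein encoded by Slc3a2. Wnt/β-catenin signaling acts on genes through TCF/LEF proteins, which bind DNA at a short motif. The promoters of 5 called genes are shown to let the motif be read in place. Slc3a2 and Slc39a10 are the called genes whose promoters held the motif, Slc7a8 is a partner of Slc3a2, and Slc2a13 and Slc1a1 had the largest change each way among called genes with a promoter in the RefSeq table. Each runs 5′ to 3′ from 250 bases before to 50 bases after a RefSeq transcript start on GRCm38.p6, and capitals mark the letters CTTTGA or, on the other strand, TCAAAG.
Slc3a2 (chr19:8713848-8714147, minus strand): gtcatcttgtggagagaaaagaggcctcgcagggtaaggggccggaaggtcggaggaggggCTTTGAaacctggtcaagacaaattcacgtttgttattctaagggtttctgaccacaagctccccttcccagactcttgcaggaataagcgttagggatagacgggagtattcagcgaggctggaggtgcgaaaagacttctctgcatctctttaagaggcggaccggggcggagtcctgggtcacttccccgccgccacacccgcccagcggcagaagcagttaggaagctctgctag
Slc39a10 (chr1:46925727-46926026, minus strand): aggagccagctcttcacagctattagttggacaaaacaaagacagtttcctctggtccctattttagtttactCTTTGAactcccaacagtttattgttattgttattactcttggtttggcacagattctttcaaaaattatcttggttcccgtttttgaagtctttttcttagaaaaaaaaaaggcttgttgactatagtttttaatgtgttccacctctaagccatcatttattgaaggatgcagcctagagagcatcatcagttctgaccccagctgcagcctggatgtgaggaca
Slc7a8 (chr14:54781837-54782136, minus strand): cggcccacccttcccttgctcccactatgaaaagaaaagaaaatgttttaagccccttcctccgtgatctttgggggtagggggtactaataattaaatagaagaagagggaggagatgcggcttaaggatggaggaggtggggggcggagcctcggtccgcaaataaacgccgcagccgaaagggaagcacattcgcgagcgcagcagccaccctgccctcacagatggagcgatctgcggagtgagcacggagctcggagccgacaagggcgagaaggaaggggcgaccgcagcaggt
Slc2a13 (chr15:91573212-91573511, minus strand): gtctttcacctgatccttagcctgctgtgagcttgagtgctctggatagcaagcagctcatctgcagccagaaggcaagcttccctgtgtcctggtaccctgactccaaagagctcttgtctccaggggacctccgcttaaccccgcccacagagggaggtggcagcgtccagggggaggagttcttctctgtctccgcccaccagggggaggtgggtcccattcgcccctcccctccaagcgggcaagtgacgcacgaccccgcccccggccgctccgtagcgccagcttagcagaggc
Slc1a1 (chr19:28834885-28835184, plus strand): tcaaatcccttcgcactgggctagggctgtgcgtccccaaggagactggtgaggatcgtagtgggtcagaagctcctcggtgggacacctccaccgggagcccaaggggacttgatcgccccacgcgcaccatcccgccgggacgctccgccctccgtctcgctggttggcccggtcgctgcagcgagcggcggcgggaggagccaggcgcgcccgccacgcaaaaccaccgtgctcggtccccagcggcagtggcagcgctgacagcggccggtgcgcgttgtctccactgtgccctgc

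The letters CTTTGA stood 189 bases before the start of Slc3a2 and 177 bases before the upstream start of Slc39a10. Of 10 promoters of 8 genes that were higher in the mutant, 2 held the motif on either strand. It was in 0 of 5 promoters of 4 genes that were lower. Among all 81 solute carriers, 61 had a promoter in the table, and 13 of their 74 promoters held it, a share of 17.6%, against 16% of all 32851 promoters in the table. A match of these letters is a description and not a binding site. No promoter of Slc7a5, Slc6a2, Slc40a1, Slc20a2 or Slc38a1 is shown.

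In the mutant uterus, 11 of the 81 solute carriers were higher than in the control and 6 lower, while 64 missed the threshold (limma, adjusted p under 0.05 over all genes). The higher genes were led by Slc7a5, a carrier of large neutral amino acids, by Slc2a13, a proton-coupled carrier of myo-inositol, and by Slc6a2, the noradrenaline transporter. The lower genes were led by Slc40a1, the iron exporter ferroportin, and by Slc1a1, a glutamate and aspartate carrier. Of all 18193 genes, 12.0% were called in either direction, 5.61% higher and 6.36% lower. Among the 6003 genes with a mean log2 intensity of 6 or more, the group most like the solute carriers in level, 16.9% were called, 7.10% higher and 9.76% lower. The solute carriers stood at 21.0%, with 13.6% higher and 7.41% lower, and whether these shares differ from the background was not tested. The shares include genes that reached the level in only the group where they are high. These are Slc2a13 and Slc7a8 among the higher and Slc1a1 and Slc31a2 among the lower genes. The median log2FC of the 81 was 0.03, with quartiles of -0.14 and 0.21, against -0.01 over all genes. A log2FC within 0.25 of 0 was found in 48 of the 81, against 13115 of all 18193 genes and 3986 of the 6003 at this level, and 4 of the 81 had one beyond 1.

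The 3 mutant arrays lay all above or all below the 3 control arrays in 35 of the 81 genes, a share of 43.2%, where the background was 32.3% of all genes and 45.6% of the 6003 genes at this level. The mutant arrays were above in 17 of the 35 and below in 18, where 20.8% and 24.8% of the genes at this level were above and below. All 17 called genes were among the 35. Leaving out any 1 array kept 8 of the 17 calls: Slc7a5, Slc2a13, Slc6a2, Slc35b1, Slc40a1, Slc1a1, Slc31a2 and Slc25a24. With the methods' t-test, which estimates the spread for each gene alone, 0 of the 81 passed after adjustment (adjusted p from 0.0681 for the called genes), while all 17 had an unadjusted p under 0.05. Without control replicate 2 and mutant replicate 1 together, 9 were higher and 3 were lower.

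**Figure D1:**
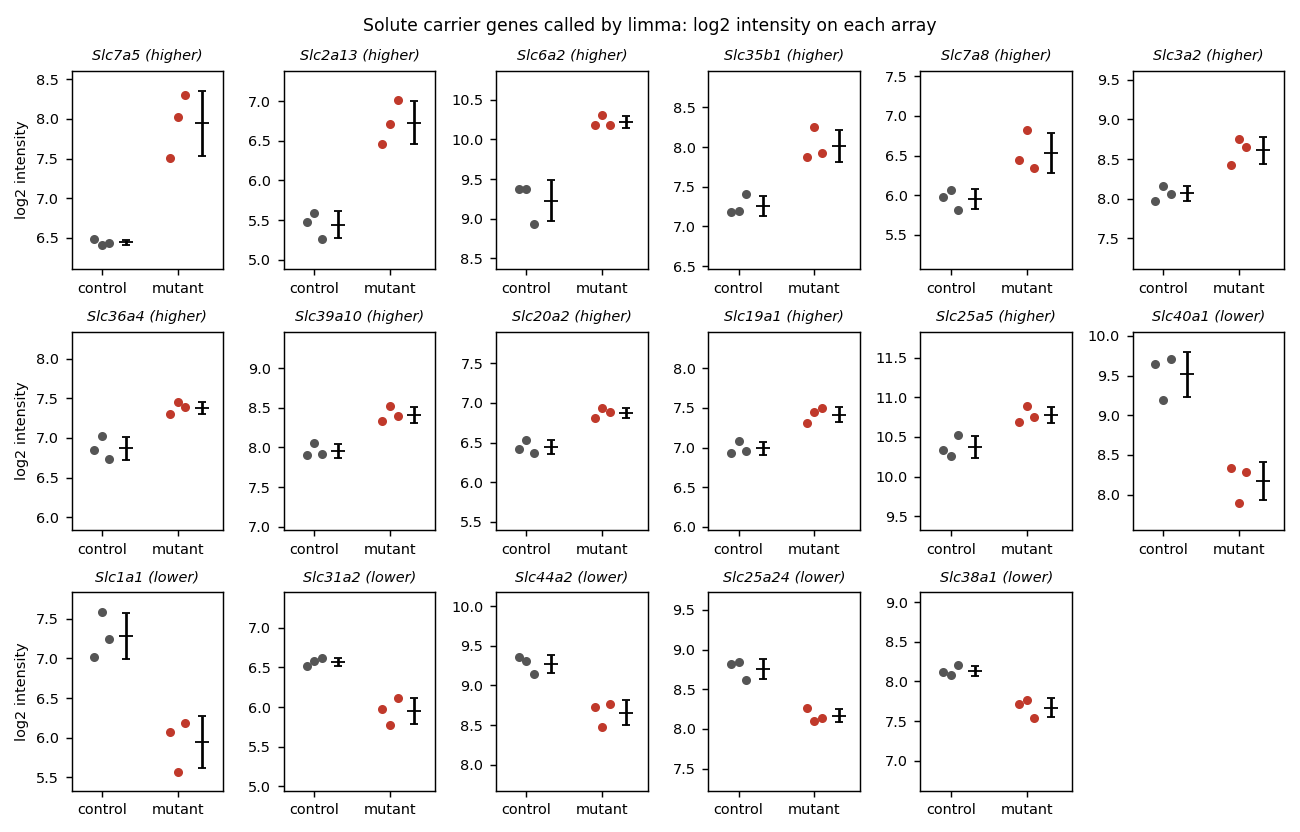
Each panel plots the log2 intensity (y axis, spanning 2.5 units in every panel) of 1 called solute carrier on the 3 control arrays (grey) and the 3 mutant arrays (red), with the mean and SD beside them in black. In all 17 panels the mutant points lie on 1 side of the control points, above them in 11 and below them in 6.

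Transport class follows from the family number. The calls were most frequent among carriers of amino acids and peptides, with 5 higher and 2 lower of 15. These 7 include Slc6a2, whose substrate is not an amino acid, and Slc7a8 and Slc1a1, which reached the level of 6 in 1 group only. Whether the share of any class differs from the 16.9% of all genes at this level was not tested. Metal carriers had 1 higher and 2 lower of 15, and mitochondrial carriers 1 higher and 1 lower of 17. Among carriers of nucleosides and nucleotide sugars 1 of 14 was higher and none was lower. Of 7 sugar carriers and sodium-solute symporters 1 was higher, of 5 lipid and vitamin carriers 1 was higher and 1 lower, and of 4 carriers of inorganic ions 1 was higher. None of the 3 carriers of organic ions and monocarboxylates was called, nor was Slc66a2, whose family is outside these classes. The class medians lay between -0.11 and 0.08 on the log2 scale.

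**Figure D2:**
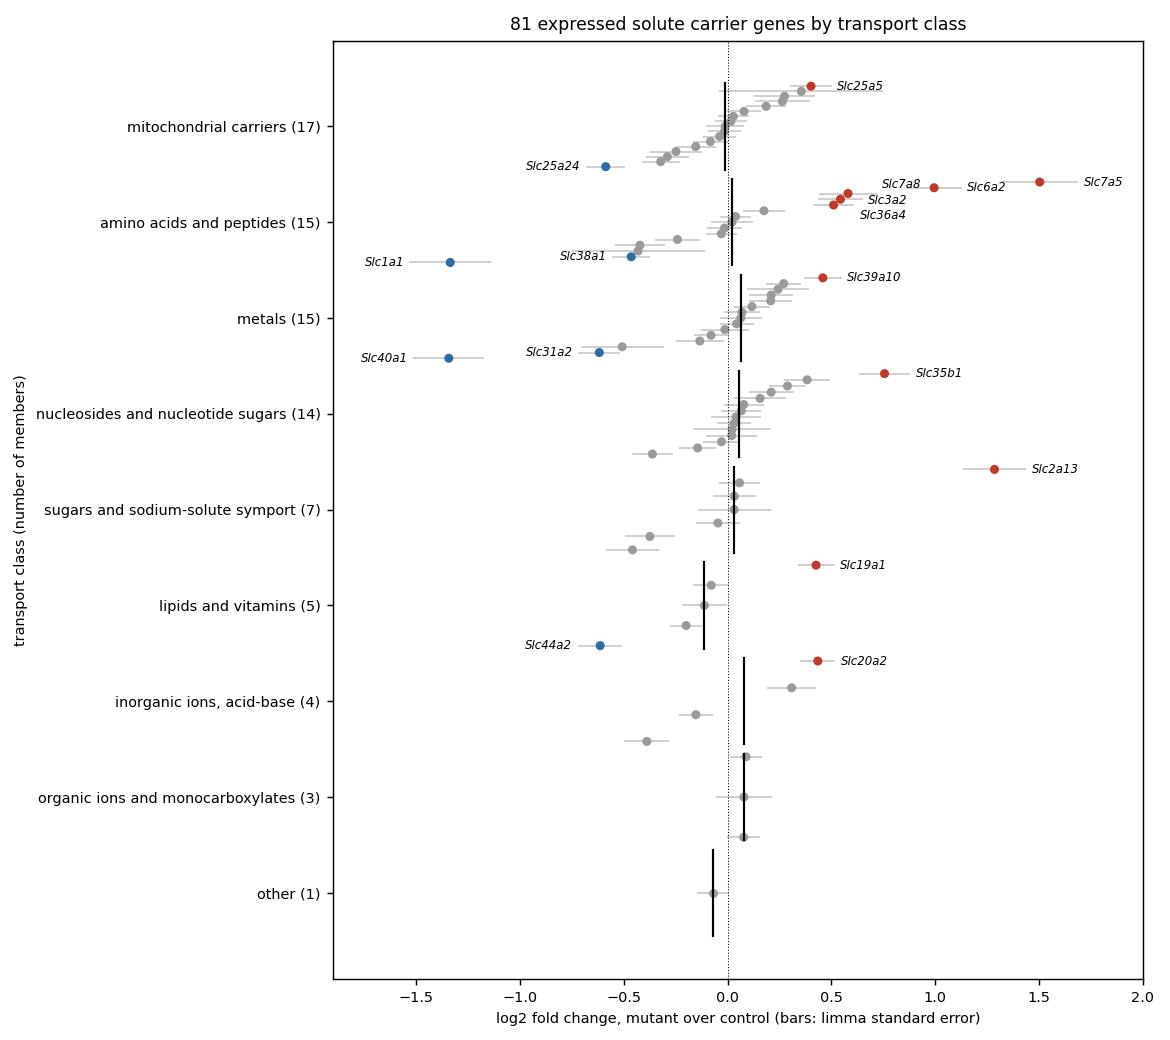
Each point is 1 of the 81 solute carriers at its log2FC of mutant over control (x axis, bars are limma's standard errors), in rows by transport class with the number of genes in brackets; red is higher, blue lower, grey not called, and black bars are class medians. Called genes lie at both ends of the amino acid, metal, mitochondrial, and lipid and vitamin classes, while the medians lie between -0.11 and 0.08.

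The carriers of amino acids held the largest rise. Slc7a5, the light chain that carries leucine, phenylalanine and other large neutral amino acids, had log2 intensities of 6.48, 6.41 and 6.44 on the control arrays, in replicate order, and of 7.50, 8.03 and 8.31 on the mutant arrays. The control arrays were nearly equal and the mutant arrays spread widely, with mutant replicate 1 nearest to the controls. This was a log2FC of 1.503 (SE 0.19, adjusted p = 0.00325 from limma), or 2.83-fold. Its heavy chain Slc3a2 had 7.98, 8.16 and 8.06 in the controls and 8.43, 8.75 and 8.66 in the mutants. The groups did not overlap, and the log2FC was 0.54 (SE 0.11, adjusted p = 0.018). Slc7a8, another light chain of Slc3a2 with a wide range of neutral amino acids, had 5.98, 6.07 and 5.82 in the controls and 6.45, 6.82 and 6.34 in the mutants. Its log2FC was 0.58 (SE 0.14, adjusted p = 0.0345), with mutant replicate 2 the highest. Slc7a8 reached the level of 6 through the mutant arrays only, so its rise is no support for a shared change. The other light chains known to pair with Slc3a2 lay under that level and are given for their pairing, after their values were seen. Of these, Slc7a6 and Slc7a10 had log2FCs of 0.46 (adjusted p = 0.0369) and 0.63 (adjusted p = 0.0118). Slc7a11 had one of 0.52 (adjusted p = 0.0742) and Slc7a7 one of -0.27 (adjusted p = 0.181). Slc7a10 was dim, with log2 intensities of 2.68 to 3.54 over all arrays, so the size of its change is uncertain. The calls of Slc3a2 and Slc7a8 were lost when any of several arrays was left out. Slc3a2 was no longer called once any array other than control replicate 2 or mutant replicate 1 was dropped, with log2FCs of 0.47 to 0.54 and adjusted p of 0.0533 to 0.0789. Slc7a8 was no longer called once any array other than mutant replicate 3 was dropped (0.44 to 0.64, adjusted p of 0.0546 to 0.105).

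Slc6a2 belongs to the same class by its family, although its substrate, noradrenaline, is a transmitter and not an amino acid. It had log2 intensities of 9.37, 9.38 and 8.93 on the control arrays, in replicate order, and of 10.18, 10.30 and 10.18 in the mutants. The mutant arrays were close to each other and control replicate 3 was the lowest. The log2FC was 0.99 (SE 0.13, adjusted p = 0.00443), or 1.99-fold. Slc36a4, a carrier of proline and tryptophan, rose from 6.87 ± 0.15 to 7.38 ± 0.08 (mean log2 intensity ± SD, n = 3 per group), a log2FC of 0.51 (SE 0.10, adjusted p = 0.0172). Its call needed the same 4 arrays as that of Slc3a2, and dropping any of them gave 0.44 to 0.51 (adjusted p of 0.0501 to 0.0741).

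The lower amino acid carriers were Slc1a1 and Slc38a1. Slc1a1 had 7.01, 7.59 and 7.24 on the control arrays, in replicate order, and 6.07, 5.57 and 6.19 on the mutant arrays. Control replicate 2 was the highest and mutant replicate 2 the lowest, and the groups were apart. Slc1a1 fell by 1.34 on the log2 scale (SE 0.20, adjusted p = 0.00644). Slc38a1, which brings glutamine into the cell with sodium, went from 8.13 ± 0.06 to 7.67 ± 0.12, a log2FC of -0.46 (SE 0.09, adjusted p = 0.0174). Its call did not hold when either control replicate 1 or control replicate 3 was dropped (-0.47 to -0.43, adjusted p of 0.0552 to 0.069). The taurine carrier Slc6a6 had a log2FC of -0.42 that did not pass (adjusted p = 0.0669), with every mutant array below every control array. The glutamine carrier Slc1a5 differed by -0.01 between the groups (adjusted p = 0.939).

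Among the metal carriers, the largest change was that of Slc40a1, the exporter that lets iron out of cells. Its log2 intensities were 9.64, 9.19 and 9.71 on the control arrays, in replicate order, and 8.33, 7.90 and 8.29 on the mutant arrays. The lowest control array stood well above the highest mutant array, and within each group replicate 2 was the lowest. Slc40a1 fell by 1.34 on the log2 scale (SE 0.17, adjusted p = 0.00363). Macrophages of many tissues express Slc40a1. Of 11 macrophage markers 5 were higher in the mutant (C1qa, C1qb, C1qc, Fcgr1 and Lyz2) and none was lower, and their summed intensity was 1477 to 1535 in the control and 1790 to 1942 in the mutant arrays. The other 6 markers were not called, and the part of macrophages in the change of Slc40a1 was not tested. In RNA of whole tissue, fewer cells of a type and less RNA per cell cannot be told apart.

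Slc31a2, a copper transporter of endosomes and lysosomes, had 6.51, 6.59 and 6.61 in the controls and 5.97, 5.78 and 6.11 in the mutants. The control arrays differed by little, and all mutant arrays were below them. Its log2FC was -0.62 (SE 0.10, adjusted p = 0.00951). Slc39a10, a zinc importer of the plasma membrane, rose from 7.96 ± 0.09 to 8.41 ± 0.10, a log2FC of 0.46 (SE 0.09, adjusted p = 0.018). Dropping control replicate 1, control replicate 3 or mutant replicate 2 ended this call (0.40 to 0.44, adjusted p of 0.0561 to 0.0802). The other zinc carriers did not pass. Slc39a7, which releases zinc from the endoplasmic reticulum and Golgi, had a log2FC of 0.27 (adjusted p = 0.0807) and no overlap between the groups. Slc39a4, the zinc importer of the apical membrane of epithelia, had 6.63, 6.77 and 7.43 in the mutants against 7.39, 7.38 and 7.60 in the controls. Mutant replicate 3 lay among the controls and the other mutant arrays below them, and the log2FC of -0.51 did not pass (adjusted p = 0.153).

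Slc2a13 was the called gene of the sugar class, and its substrate is myo-inositol. Its log2 intensities were 5.48, 5.59 and 5.26 on the control arrays, in replicate order, and 6.46, 6.71 and 7.01 on the mutant arrays. Only the mutant arrays were above the level of 6, and the log2FC was 1.29 (SE 0.15, adjusted p = 0.00277), or 2.44-fold. The sodium-coupled carrier of the same substrate, Slc5a3, had 7.26, 7.12 and 7.13 in the controls and 6.46, 6.91 and 6.77 in the mutants. It lay lower in every mutant array, with a log2FC of -0.46 that did not pass (SE 0.13, adjusted p = 0.0566). The glucose transporter Slc2a1 had a log2FC of -0.37 (adjusted p = 0.0957) and its relative Slc2a3 one of 0.03 (adjusted p = 0.936).

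In the carriers of nucleotides, Slc35b1, a carrier of the endoplasmic reticulum membrane that exchanges ATP for ADP, had 7.18, 7.19 and 7.41 in the controls and 7.87, 8.25 and 7.92 in the mutants. The lowest mutant array was above the highest control array. The log2FC was 0.76 (SE 0.12, adjusted p = 0.00942), or 1.69-fold. The CMP-sialic acid carrier Slc35a1 and its relative Slc35a5 had log2FCs of 0.29 (adjusted p = 0.0781) and 0.38 (adjusted p = 0.0698), with no overlap between the groups. The lysosomal nucleoside carrier Slc29a3 had a log2FC of -0.36 (adjusted p = 0.0541).

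Of the 17 mitochondrial carriers 2 were called, a share of 11.8%, against 12.0% of all genes and 16.9% of the 6003 genes at this level. Among those not called, Slc25a17 and Slc25a12 had log2FCs of -0.32 and -0.29 (adjusted p = 0.0634 and 0.116) with no overlap between the groups. Slc25a24, a calcium-regulated carrier that exchanges ATP-magnesium for phosphate, had 8.81, 8.84 and 8.61 in the controls and 8.26, 8.10 and 8.14 in the mutants. All mutant arrays were lower, and the log2FC was -0.59 (SE 0.09, adjusted p = 0.00862). Slc25a5, an ADP/ATP exchanger of the inner membrane, had 10.34, 10.26 and 10.53 in the controls and 10.69, 10.89 and 10.75 in the mutants. The groups were separate but close, with a log2FC of 0.40 (SE 0.10, adjusted p = 0.042). The call ended when any array other than control replicate 3 was dropped (0.34 to 0.45, adjusted p of 0.0542 to 0.144). Its relative Slc25a4, the other ADP/ATP exchanger among the 81, had a log2FC of 0.03 (adjusted p = 0.863), the phosphate carrier Slc25a3 one of 0.08 (adjusted p = 0.622) and Slc25a39, which brings glutathione into mitochondria, one of -0.02 (adjusted p = 0.93). These 4 and Slc6a2 were the brightest of the 81, although intensities of different probe sets do not rank amounts of RNA.

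The remaining called genes carry lipids, vitamins and phosphate. Slc44a2, a choline transporter-like protein, had 9.36, 9.31 and 9.14 in the controls and 8.72, 8.48 and 8.77 in the mutants. It was lower in every mutant array, with a log2FC of -0.61 (SE 0.11, adjusted p = 0.012), and the call was lost without control replicate 1 (-0.57, adjusted p = 0.0584). Its relative Slc44a1 had a log2FC of -0.20 (adjusted p = 0.146). Slc19a1, the reduced folate carrier, rose from 6.99 ± 0.08 to 7.42 ± 0.10, and Slc20a2, a sodium-phosphate cotransporter, from 6.44 ± 0.09 to 6.87 ± 0.06. Both had log2FCs of 0.43 (adjusted p = 0.0226 and 0.017). Each call ended when any array other than control replicate 2 or mutant replicate 1 was dropped (0.39 to 0.43, adjusted p of 0.0514 to 0.0948). Slc12a2, the sodium-potassium-chloride cotransporter, had a log2FC of -0.39 (adjusted p = 0.0596) and its potassium-chloride relative Slc12a7 one of 0.31 (adjusted p = 0.139). In the class of organic ions, the carnitine carrier Slc22a5 and the polyamine carrier Slc18b1 differed by 0.09 and 0.08 (adjusted p = 0.532 and 0.619), and Slc66a2 by -0.07 (adjusted p = 0.635).

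A gene can be read by several probe sets, and 55 of the 81 had more than 1. The other probe sets of the called genes numbered 22 over 11 genes. Of these, 18 changed in the same direction as the brightest one, 9 of them past the threshold with all probe sets adjusted together, and none passed in the opposite direction. All 3 probe sets of Slc1a1 were lower, at -1.34, -1.64 and -0.75, and both of Slc40a1, at -1.34 and -1.31. Of the 4 probe sets of Slc6a2, 3 were higher, at 0.99, 0.73 and 1.00, and the dimmest had a log2FC of 0.05. The other probe set of Slc38a1 did not follow the call, with a log2FC of 0.17 (adjusted p = 0.41). Slc25a5 had 8 probe sets with log2FCs of 0.06 to 0.59, and only 1 of them passed, not the brightest (adjusted p = 0.0545). The probe sets that stand for Slc25a5, Slc44a2 and Slc38a1 are of kinds whose probes can match transcripts of other genes, and their values are uncertain to that extent. When the probe sets of a gene were averaged, Slc19a1, Slc20a2 and Slc38a1 were not called.

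Slc15a2, a carrier of di- and tripeptides, was not called by its brightest probe set but was by others. The brightest had 8.10, 8.18 and 6.95 on the control arrays, in replicate order, and 7.22, 7.08 and 7.64 on the mutant arrays, where control replicate 3 lay below all mutant arrays. Its log2FC was -0.43 (adjusted p = 0.46), and its control SD of 0.69 was the largest of the 81. The next had 7.67, 7.90 and 7.51 in the controls and 6.91, 6.02 and 6.84 in the mutants, and its probes can also match transcripts of other genes. The third had 7.34, 7.61 and 7.04 against 6.49, 5.74 and 6.43. Both fell by 1.11 on the log2 scale (adjusted p = 0.023 and 0.0188), with every mutant array below every control array. The call of Slc15a2 therefore depends on the probe set. A dimmer probe set of Slc35a2, a UDP-galactose carrier, was also called, at 0.45 (adjusted p = 0.032). The probes of that set can also match transcripts of other genes. The brightest probe set of Slc35a2 differed by 0.04 between the groups. Its remaining probe sets had log2FCs of 0.11 to 0.28 and were not called.

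**Figure D3:**
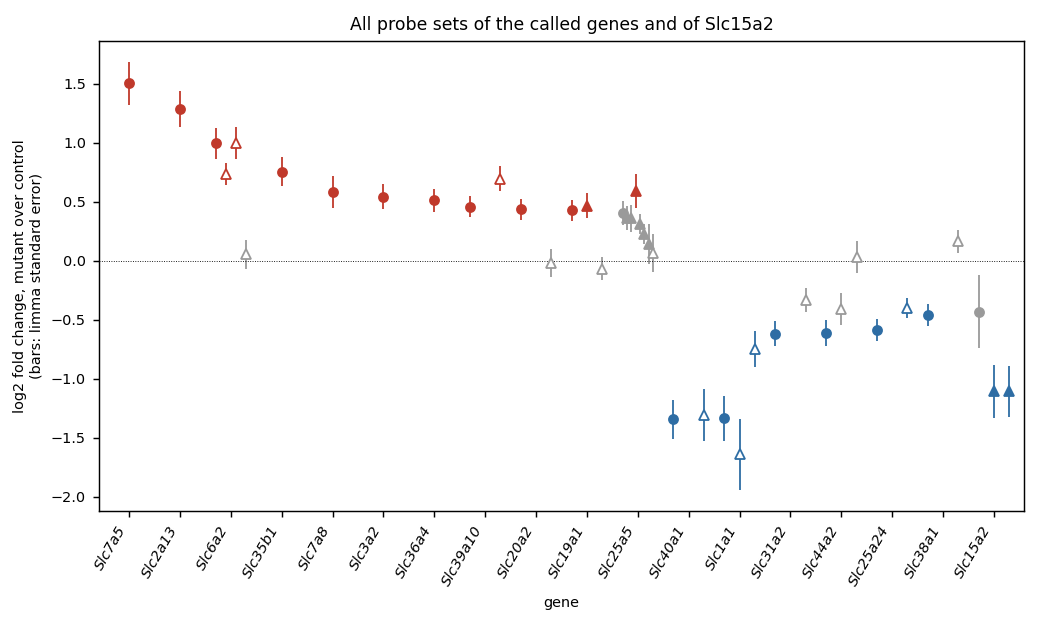
Each point is 1 probe set of a called gene or of Slc15a2, at its log2FC of mutant over control (y axis, bars are limma's standard errors); circles are the brightest probe set of a gene, triangles the others, open symbols have a mean log2 intensity under 6, and red and blue passed the test with all probe sets adjusted together. The 2 blue triangles of Slc15a2 stand at -1.11 beside its uncalled brightest probe set at -0.43, and the circle of Slc25a5 is grey because its call did not hold under that adjustment.

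Among themselves, the 81 genes varied little within a group, with a median SD of 0.09 over the control arrays and 0.12 over the mutant arrays. After Slc15a2, the widest spread of the controls was in Slc33a1, the acetyl-CoA carrier, at 5.79, 6.49 and 5.85, where control replicate 2 was the high one. The widest spread of the mutants was in Slc25a48, a mitochondrial carrier, at 5.58, 6.21 and 7.26, against 5.59, 6.30 and 6.10 in the controls. Its mutant arrays lay below, among and above the controls, and its log2FC of 0.35 did not pass (adjusted p = 0.641). The nearest genes inside the level of 6 were Slc35a4, Slc33a1 and Slc35e3, with means of 6.04 to 6.06. The nearest outside were Slc23a2, Slc44a4 and Slc19a2, with means of 5.95 to 5.98.

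**Figure D4:**
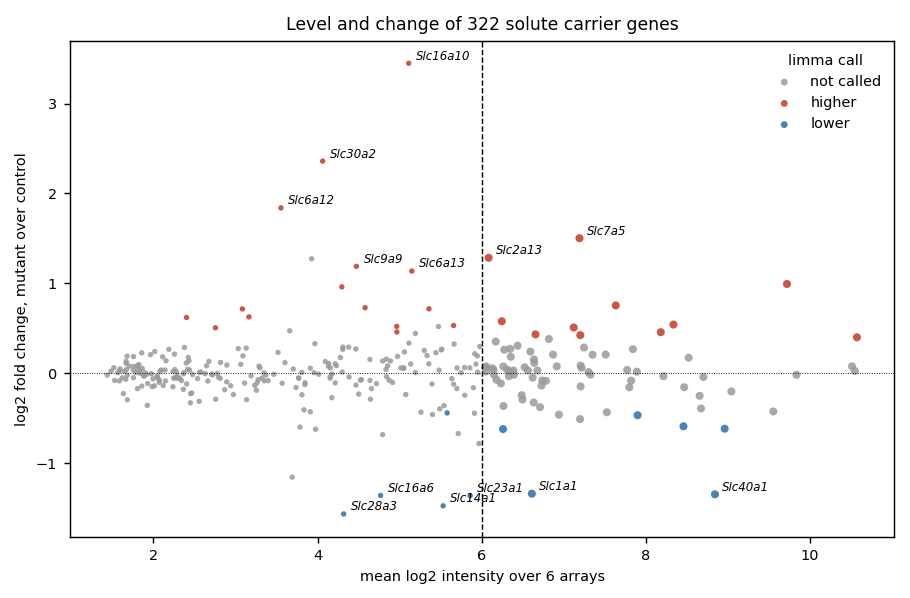
Each point is 1 of 322 solute carriers at its mean log2 intensity over 6 arrays (x axis) and its log2FC of mutant over control (y axis); the dashed line marks the level of 6, with the 81 genes to its right in larger points, and red and blue are genes called higher and lower. Called genes lie on both sides of the line, and those with a change beyond 1 are labelled.

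Of the 241 solute carriers under the level, 15 were higher and 5 were lower, or 8.30%, against 12.0% of all genes of any level. Dim genes can have understated changes. Genes of other transport proteins were also read. The share called ran from 9.09% of the 11 aquaporins to 33.3% of the 3 epithelial sodium channel subunits. Whether any of these shares differs from the 12.0% of all genes, or 16.9% of genes at the level, was not tested. Of 10 measured sodium pump subunits and regulators, 1 was higher and 2 were lower, and all 3 were FXYD proteins that tune the pump. Fxyd6 rose by 2.99 on the log2 scale (SE 0.16, adjusted p = 0.000107), and Fxyd4 fell by 2.15 (SE 0.30, adjusted p = 0.00549). Of 17 carrier partners and regulators none was higher and 3 were lower, led by Emb, embigin, a partner of the monocarboxylate carriers, at -1.19 (adjusted p = 0.0205), and Wnk2, a kinase of the family that regulates chloride cotransporters, at -0.56 (adjusted p = 0.00943). Of 16 genes of the carbonic anhydrase family, 1 was higher and 2 were lower, led by Car12 at -1.81 (adjusted p = 0.0063) and Car8 at -0.81 (adjusted p = 0.0158). Of 11 calcium and copper pumps none was higher and 2 were lower, Atp2b2 at -1.92 (adjusted p = 0.00186) and Atp2a3 at -0.91 (adjusted p = 0.0262). Of 33 ABC transporters 2 were higher and 4 were lower, led by Abcd2 at 1.52 (adjusted p = 0.00344) and Abca8a at -1.03 (adjusted p = 0.00453). Of 13 Slco organic anion transporters 2 were higher and none was lower, Slco1b2 (adjusted p = 0.026), with log2 intensities of 1.70 to 2.09 on the control arrays and 2.86 to 4.64 on the mutant arrays, and Slco2b1 at 0.51 (adjusted p = 0.0324). Of 11 aquaporins 1 was higher, Aqp8 at 1.77 (adjusted p = 0.0147), and of 3 epithelial sodium channel subunits 1 was lower, Scnn1b at -0.52 (adjusted p = 0.02). The probe sets of Abcd2, Slco1b2, Aqp8 and Scnn1b were dim, with means of 2.85 to 3.94 over all arrays, so the sizes of their changes are uncertain.

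Markers of the cell types of the uterus were set beside these results. Of 11 epithelial markers 2 were lower (Krt18 and Spint2), none was higher, and 9 had a negative log2FC, and their summed intensity was 5995 to 6932 in the control and 4364 to 6029 in the mutant arrays. Of 9 smooth muscle markers none was called, with summed intensities of 13432 to 15441 and 13511 to 15555. Of 8 stromal markers 1 was higher (Hand2), none was lower and 6 had a negative log2FC, with 24832 to 26524 and 23949 to 25599. Of 10 adipocyte markers 2 were higher (Cidec and Retn) and all 10 had a positive log2FC, with 740 to 2509 in the control and 3871 to 6370 in the mutant arrays. Control replicate 3 was the low one, with a mean log2 intensity of 4.73 over these markers against 5.79 and 6.04 in the other control arrays. Lep and Cidea were under an intensity of 16 on every array. Of 8 endothelial markers 1 was lower (Tek), with 708 to 801 and 662 to 811. Of 6 mast cell markers 1 was higher (Kit), with 60 to 81 and 117 to 186. Kit and Tpsb2 had log2FCs of 1.27 and 2.36, and the other mast cell markers -0.02 to 0.23. Tpsb2 was not called, with log2 intensities of 6.16, 6.42 and 3.28 on the mutant arrays. Cma1, Fcer1a and Mcpt4 were under an intensity of 16 on every array. None of 5 erythroid markers reached an intensity of 16 on any array. Of 13 cell cycle genes 1 was higher (Mcm2), with 420 to 1667 and 1396 to 1804, where the lowest value is control replicate 2. The part of any of these in the changes of the solute carriers was not tested.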

How the data were processed

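Uterine RNA of 3 control and 3 mutant mice was measured on Affymetrix arrays, and each array was placed in its group by its sample label. The authors deposited 1 linear intensity per probe set and array, normalized between arrays with RMA by the submitters' processing notes; the sources used here give neither its version nor any filter, and no detection calls were used. The deposited medians of 7.23 to 7.42 show that arrays were on 1 scale. No batch, scan date or animal is given. The number of arrays limits the precision.

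Values were raised to a floor of 1, below which none lay, and log2 transformed. GEO's platform annotation gave gene symbols. Of 45037 probe sets, 34945 had 1 symbol, 932 several and 9160 none, and each of 18193 genes was read by its probe set of highest mean. All 81 solute carriers had the same symbol in RefSeq on GRCm38.p6, the source of the promoters. The test of mutant against control used lmFit and eBayes of limma 3.58.1 (R 4.3.3) without covariates, and p-values were adjusted over every gene by Benjamini and Hochberg, with a threshold of 0.05; the steps were tested on simulated data. Errors beside means are SDs. Transport classes follow family numbers. Named genes are all called members, the 5 brightest, the 2 of smallest p in a class without a call, the 3 nearest each side of the level, and up to 2 per other list; other genes were named after their values were seen. Members, lists and tests were chosen with earlier results of these data known. The alternatives were other scalings, probe set rules, filters, floors, spread estimates, call rules, levels, the replicate number as a block, and arrays left out.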

Additional observations from a re-analysis of the deposited data

How the results depend on the processing

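The 11 higher and 6 lower solute carriers kept their direction under every alternative run, and 8 of the 17 calls held without any 1 array. Of 289 values of the 17 called genes under 17 alternatives, 230 stayed past the threshold and 59 did not. Without 1 array, the higher count ranged from 4 to 10 and the lower from 4 to 8. The lowest higher counts came without control replicate 1 (4), control replicate 3 (5), mutant replicate 2 (4) and mutant replicate 3 (6), against 9 without control replicate 2 and 10 without mutant replicate 1; the cause was not tested. Over all genes, the higher count then ranged from 480 to 971 and the lower from 372 to 1139.

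The lower count of solute carriers was 10 with the dimmest 40% of genes left out, 10 with a floor of 16, 11 with array weights, and 3 without control replicate 2 and mutant replicate 1. With the methods' t-test, 0 were higher and 0 lower (14 and 13 at an unadjusted p under 0.05), against 105 and 39 over all genes (1924 and 2224 unadjusted). At a fold above 1.5 and an unadjusted p under 0.05, 4 solute carriers were higher and 5 lower, so that the higher ones no longer outnumbered the lower, and over all genes 744 were higher and 757 lower. With the Slc26 genes, Slc18a2 and Slc2a4 included, an alternative chosen after seeing the data, Slc26a2 and Slc26a7 joined, and 12 were higher and 7 lower of 83. With means of 6 or more in both groups, 9 were higher and 4 lower of 76. The median log2FC stayed between 0.01 and 0.05.

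The replicate block gave 10 higher and 7 lower solute carriers, and Slc25a5 lost its call. Deviations of same-numbered arrays correlated at 0.02, 0.26 and 0.19 across genes. The values of replicates 2 and 3 were the highest of all pairs of a control and a mutant array. Control replicate 1 correlated best with mutant replicate 3 (0.16). The labels give no pairing, and so few arrays cannot tell whether same-numbered arrays were handled together. The number of arrays and the dim probe sets, for which no detection calls were used, limit small changes.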
